A study of Mus musculus with 4 samples.

Results

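The genes described here are 10 genes of insulin and insulin-like growth factor signalling and of the JNK kinases, namely Insr, Igf1r, Irs1, Irs2, Pik3r1, Pik3ca, Akt1, Akt2, Mapk8 and Mapk10. They were taken by symbol from the 55401 gene identifiers of the count files, and each symbol matched 1 identifier in the GENCODE M21 annotation of GRCm38 (mm10). RNA was measured in oocytes of E18.5 mouse fetuses, 2 samples (ND) from ICR mothers on a normal diet and 2 samples (HFD) from ICR mothers on a high-fat diet, each diet given for 4 months from weaning age, with ND males as fathers. No allele or further agent was used. Each sample was a pool of oocytes of several fetuses, sorted on the surface antigen SSEA-1, with SMART-Seq2 amplification for small RNA input. GEO lists the sorted cells as primordial germ cells from ovary. The sources used here do not say whether the fetuses of a pool shared a mother, so p-values measure the spread between these pools.

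In this pathway, insulin and the insulin-like growth factors bind receptor tyrosine kinases, which phosphorylate adaptor proteins of the IRS family. The adaptors recruit PI3-kinase, whose lipid product brings AKT kinases to the membrane, and AKT then acts on growth, glucose use and FOXO transcription factors. JNK kinases respond to cell stress and can phosphorylate IRS1 on serine, a step known from insulin resistance in obese animals. In the ovary the PI3-kinase and AKT branch is known for the activation of primordial follicles.

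The libraries held 5723605 to 8223255 counted reads, and 3 counts correspond to 0.365 to 0.524 CPM (counts per 1000000 counted reads of a library). Of 12 markers of oocytes and germ cells, 10, 10, 9 and 9 exceeded the background limit explained below in ND replicates 1 and 2 and HFD replicates 1 and 2, and none was at 0. They summed to 2077 and 4500 CPM in the ND libraries and to 4959 and 4710 CPM in HFD replicates 1 and 2. Single markers differed widely between libraries. Dazl had 14247 and 29465 counts in ND and 2926 and 49 in HFD, and Sycp1 had 36 and 48 in ND and 9038 and 7978 in HFD. Markers of other ovarian cells had reads as well. The 10 stromal markers summed to 2846 and 70.6 CPM in the ND libraries and to 2223 and 7701 CPM in HFD replicates 1 and 2. In ND replicate 1 and HFD replicate 2 the stromal sum exceeded that of the germ cell markers. The 10 pregranulosa markers summed to 39.3 and 411 CPM in ND and to 20.4 and 1169 CPM in HFD, in the same order, but 93.1% of the sum in ND replicate 2 was Fst and 95.2% of that in HFD replicate 2 was Amhr2. The 6 endothelial markers summed to 19.7 and 70.1 CPM in ND and to 709 and 29.9 CPM in HFD, and Kdr made up 96.1% of the sum in HFD replicate 1. No stromal, pregranulosa or endothelial marker was at 0 in any library. This says little on presence, since 80.0% to 96.1% of the olfactory receptor genes used as background below had reads too. Above the background limit were 7 and 4 stromal markers in ND and 3 and 6 in HFD. For pregranulosa markers these numbers were 2 and 2 in ND and 0 and 2 in HFD, and for endothelial markers 0 and 1 in ND and 3 and 1 in HFD. In such bulk libraries, fewer cells of a type and less RNA per cell cannot be told apart.

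Most of the 10 genes had few reads in E18.5 oocytes. In the ND libraries they ranged from 25 to 124 counts, or 3.20 to 15.1 CPM. In HFD replicate 1 the range was 9 to 2158 counts, and in HFD replicate 2 it was 38 to 13735 counts. Large counts were found for Irs1, Pik3r1, Mapk8 and Mapk10 in HFD libraries. These 4 genes took 32.2% and 29.7% of the reads of the 10 genes in the ND libraries, 95.6% in HFD replicate 1 and 98.1% in HFD replicate 2. The 4 were set apart here after their counts were seen. The study's own list of upregulated genes holds them too, but it was made on these samples and adds no independent evidence. Irs1 had its reads in HFD replicate 1, Pik3r1 and Mapk10 in HFD replicate 2, and Mapk8 in both HFD libraries. The plot of CPM by gene and library shows the remaining 6 genes between 5.59 and 15.1 CPM in the ND libraries, 1.39 and 9.45 CPM in HFD replicate 1, and 6.99 and 44.4 CPM in HFD replicate 2.

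**Figure D1:**
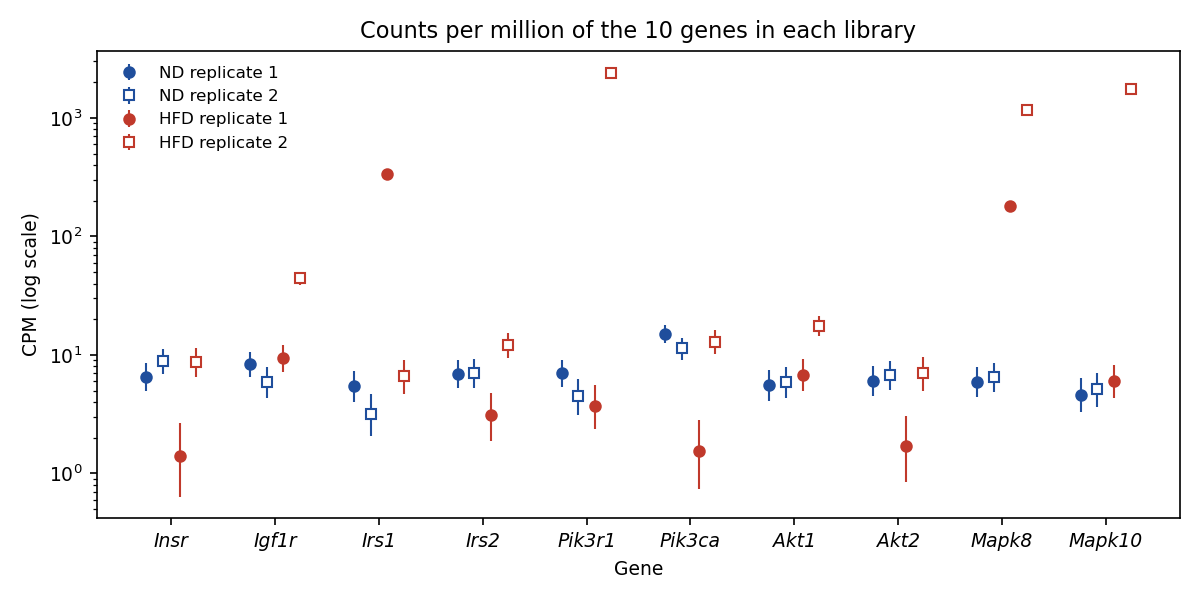
CPM on a log scale for each of the 10 genes in the 4 libraries (blue ND, red HFD, filled circles replicate 1, open squares replicate 2). Bars are 95% Poisson intervals, which cover counting error only. Irs1 reaches 334 CPM in HFD replicate 1 alone, Pik3r1 and Mapk10 reach 2399.7 and 1744 CPM in HFD replicate 2 alone, and Mapk8 stands at 180 and 1158 CPM in the HFD libraries.

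To ask whether a low count is more than stray reads, each gene was compared per kilobase of exon with 1093 olfactory receptor genes, a class used in sensory neurons. The background limit of a library was their 99th percentile, 8.49 and 8.99 reads per kilobase for ND against 7.36 and 12.5 for HFD. A gene had also to exceed 3 counts. Of the 10 genes, 3 and 2 exceeded the limit in ND against 3 and 5 in HFD. For comparison, 24.8% and 22.2% of protein-coding genes did so in ND and 13.5% and 15.3% in HFD. Akt1 was the gene above the limit in all 4 libraries, and Insr and Akt2 were above it in none. The shares of protein-coding genes above it in all 4 libraries or in none were not computed. The grid of ratios to the limit shows values between 0.0890 and 1.97 for every gene and library apart from the 5 large ones.

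**Figure D2:**
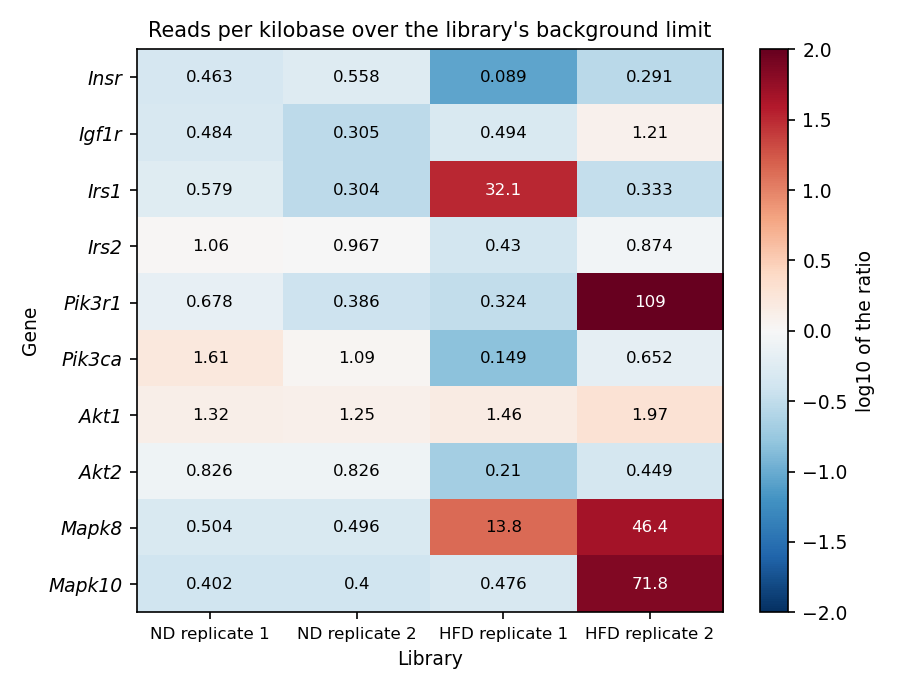
Reads per kilobase of exon divided by the background limit of the same library, for 10 genes (rows) and 4 libraries (columns), with the ratio printed in each cell and its log10 as colour. Ratios of 13.8 to 109 are found in 5 cells, Irs1 in HFD replicate 1, Mapk8 in both HFD libraries, and Pik3r1 and Mapk10 in HFD replicate 2.

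The sequences before the start sites of these 4 genes are shown because the large counts of the HFD libraries fall on them and not on Irs2 and Pik3ca. Each is the 250 bases before the first start listed by RefSeq on GRCm38.p6, in the direction of the gene, and capitals mark every match to the GC box GGGCGG on either strand.
Irs1, chr1:82291440-82291689, minus strand: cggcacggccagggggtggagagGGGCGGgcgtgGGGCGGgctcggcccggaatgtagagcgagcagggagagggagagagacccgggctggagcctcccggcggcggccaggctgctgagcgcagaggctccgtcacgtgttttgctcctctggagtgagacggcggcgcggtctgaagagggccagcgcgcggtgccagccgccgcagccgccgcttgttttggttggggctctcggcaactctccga
Pik3r1, chr13:101768218-101768467, minus strand: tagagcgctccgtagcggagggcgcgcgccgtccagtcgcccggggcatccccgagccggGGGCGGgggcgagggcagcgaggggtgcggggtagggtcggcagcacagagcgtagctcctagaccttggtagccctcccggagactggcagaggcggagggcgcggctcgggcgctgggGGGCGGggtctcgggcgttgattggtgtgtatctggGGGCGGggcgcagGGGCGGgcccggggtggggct
Mapk8, chr14:33447159-33447408, minus strand: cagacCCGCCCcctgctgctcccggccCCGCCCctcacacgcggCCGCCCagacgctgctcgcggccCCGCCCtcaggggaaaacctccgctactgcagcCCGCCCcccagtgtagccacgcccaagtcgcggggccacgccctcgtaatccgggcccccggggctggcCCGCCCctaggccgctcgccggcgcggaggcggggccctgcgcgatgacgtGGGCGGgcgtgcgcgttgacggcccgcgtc
Mapk10, chr5:103211335-103211584, minus strand: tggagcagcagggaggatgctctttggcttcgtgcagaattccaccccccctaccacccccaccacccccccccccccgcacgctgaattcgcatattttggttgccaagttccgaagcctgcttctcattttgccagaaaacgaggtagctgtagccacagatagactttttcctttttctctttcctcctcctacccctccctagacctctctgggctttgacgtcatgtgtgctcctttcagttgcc
The 4 windows differed in base composition and in GC boxes. Mapk8 had 79.2% GC and 7 matches, Pik3r1 had 76.4% and 4 matches, Irs1 had 72.4% and 2 matches, and Mapk10 had 54.8% and 0 matches. Over 32851 such windows the median GC content was 52.4%, and 32.7% held a GC box. The CCAAT box had 1 match in Pik3r1 and is found in 33.8% of all windows. The letters TATAAA, the FOXO motif GTAAACA and the AP-1 motif TGACTCA, searched on both strands, are in none of the 4 windows, and 12.4%, 3.17% and 4.46% of all windows hold them. High GC content and GC boxes were not confined to these 4 genes. Igf1r had 77.6% GC and 2 GC boxes, Irs2 had 72.8% and 1, and Pik3ca had 61.6% and 1. Akt2 had 48.8% and 1, and Akt1 had 52.0% and 0. A FOXO match was present before Akt1, an AP-1 match before Pik3ca, and 2 CCAAT matches before Irs2. Insr was not among the windows matched. A match of letters is a description of the sequence and says nothing on binding.

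Insr and Igf1r encode the receptor tyrosine kinases for insulin and for insulin-like growth factor 1. Insr lies on chromosome 8 from 3122061 to 3279617 (GRCm38), and its reads numbered 54 and 69 in ND replicates 1 and 2 against 9 and 50 in HFD. HFD replicate 1 was the low library, at 1.39 CPM (95% Poisson interval 0.637 to 2.65) against 6.57 to 8.83 CPM in the others. In TMM-normalized CPM, which also corrects for differences in composition, both HFD libraries lay below both ND libraries, whereas in CPM they overlapped. The TMM factors were 1.02 and 0.940 in ND and 0.692 and 1.51 in HFD. With them Insr stood at 2.05 and 5.99 in HFD replicates 1 and 2, a smaller gap than in CPM. Its log2 fold change, HFD over ND, came to -1.004 (standard error, SE, 0.70, adjusted p = 0.582 in the quasi-likelihood test of edgeR). Igf1r lies on chromosome 7 from 67952827 to 68233668, with 69 and 46 counts in ND against 61 and 254 in HFD. HFD replicate 2 was the high library, at 44.4 CPM (95% Poisson interval 39.1 to 50.2), and the only one in which Igf1r exceeded background, at 1.21 times the limit. HFD and ND did not overlap for Igf1r in CPM or in TMM-normalized CPM, with 9.45 CPM in HFD replicate 1 against 8.39 CPM in ND replicate 1. For Igf1r the log2 fold change came to 1.58 (SE 0.76, adjusted p = 0.411, same test). Per kilobase, the ratio of Insr to Igf1r was 0.956 and 1.83 in ND and 0.180 and 0.240 in HFD, mostly on counts at background.

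Irs1 and Irs2 encode the adaptor proteins that link the activated receptors to PI3-kinase. Irs1 lies on chromosome 1 from 82233101 to 82291416. It had 45 and 25 counts in ND, but 2158 in HFD replicate 1 and 38 in HFD replicate 2. The value of HFD replicate 1 was 334 CPM (95% Poisson interval 320.3 to 349), and the other 3 libraries lay between 3.20 and 6.64 CPM. TMM-normalized CPM averaged 4.49 ± 1.43 in ND against 247 ± 344 in HFD (SD, n = 2 per diet), so that the spread between the HFD libraries exceeded their mean. A log2 fold change of 5.78 (SE 2.45, adjusted p = 0.406 in the quasi-likelihood test of edgeR) became -0.10 without HFD replicate 1. The sum of the endothelial markers was also highest in that library, at 709 CPM, of which Kdr gave 681 CPM. Of these 6 markers, 3 were above background there, and 2, Kdr and Cldn5, had their highest CPM there, and their part in the Irs1 value was not tested. Irs1 shares 2822 exon bases with Gm9747 on the opposite strand. The strand setting of the counting is not stated, and Gm9747 had 0 counts in every library. Irs2, on chromosome 8 from 10984681 to 11008458, was counted 57 and 55 times in ND and 20 and 69 times in HFD, between 3.10 and 12.1 CPM. It exceeded the limit in ND replicate 1, at 1.06 times, and was below it in the other 3 libraries. Irs2 had a log2 fold change of -0.19 (SE 0.54, adjusted p = 0.939). Irs2 was above Irs1 per kilobase in ND replicates 1 and 2 and HFD replicate 2, where the ratio of Irs1 to Irs2 was 0.546, 0.314 and 0.381. In HFD replicate 1 the ratio was 74.6.

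Pik3r1 encodes p85 alpha, the regulatory subunit that docks PI3-kinase on phosphorylated adaptors, and Pik3ca encodes the catalytic subunit p110 alpha. Pik3r1 lies on chromosome 13 from 101680563 to 101768217. Its counts were 58 and 35 in ND, 24 in HFD replicate 1 and 13735 in HFD replicate 2. The last value is 2399.7 CPM (95% Poisson interval 2360 to 2440.2), the highest of all 10 genes, whereas HFD replicate 1 stood at 3.72 CPM, under ND replicate 2 with 4.48 CPM. TMM-normalized CPM averaged 5.98 ± 1.57 in ND against 825 ± 1159 in HFD (SD, n = 2 per diet). For Pik3r1 a log2 fold change of 7.10 (SE 3.08, adjusted p = 0.406 in the quasi-likelihood test of edgeR) became -0.12 without HFD replicate 2. The sums of the stromal and pregranulosa markers were highest in the same library, with 6 of 10 stromal and 2 of 10 pregranulosa markers above background there. The pregranulosa sum was mostly Amhr2, with 6372 counts. The macrophage sum was also highest in that library, at 40.9 CPM. Of the 7 macrophage markers, 6 had their highest CPM there and 2 were above background. Of the stromal markers, 6 of 10 had their highest CPM there, but Dcn and Lum had 2656 and 4916 counts in ND replicate 1 against 17 and 7, and Col1a2 had 4197 counts in HFD replicate 1 against 134. Their part in the Pik3r1 value was not tested. Pik3ca, on chromosome 3 from 32397671 to 32468486, was counted 124 and 89 times in ND and 10 and 74 times in HFD. HFD replicate 1 was the low library, at 1.55 CPM (95% Poisson interval 0.743 to 2.85), and the other 3 lay between 11.4 and 15.1 CPM. Pik3ca was above background in both ND libraries, at 1.61 and 1.09 times the limit, and below it in both HFD libraries, at 0.149 and 0.652 times. In TMM-normalized CPM both HFD values, 2.27 and 8.86, lay under both ND values. This was not so in CPM, where HFD replicate 2 was between the ND libraries. Pik3ca had a log2 fold change of -1.30 (SE 0.86, adjusted p = 0.551). Per kilobase, Pik3r1 reached 0.422 and 0.355 of Pik3ca in ND and 2.16 times and 167 times of it in HFD. The ratio of 2.16 in HFD replicate 1 rests on 24 against 10 counts, with both genes below background. Pik3r1 was also below background in both ND libraries.

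Akt1 and Akt2 encode AKT serine/threonine kinases, of which AKT2 is known for its part in glucose uptake. Akt1 lies on chromosome 12 from 112653821 to 112674884, with 46 and 46 counts in ND against 44 and 101 in HFD, between 5.59 and 17.6 CPM. Relative to the background limit it stood at 1.32 and 1.25 times in ND and 1.46 and 1.97 times in HFD. TMM-normalized CPM averaged 6.01 ± 0.546 in ND against 11.05 ± 1.48 in HFD (SD, n = 2 per diet), without overlap, also in CPM. Akt1 had a log2 fold change of 0.88 (SE 0.52, adjusted p = 0.490 in the quasi-likelihood test of edgeR), and leaving out any library gave 0.71 to 0.91. Akt2, on chromosome 7 from 27591552 to 27640826, was counted 50 and 53 times in ND and 11 and 40 times in HFD, all at background. HFD replicate 1 was again the low library, at 1.70 CPM (95% Poisson interval 0.850 to 3.05) against 6.08 to 6.99 CPM in the others. In TMM-normalized CPM the values were 6.11 and 7.37 in ND and 2.50 and 4.79 in HFD. Akt2 had a log2 fold change of -0.88 (SE 0.52, adjusted p = 0.489). Of the stretches of 50 bases in Akt2 transcripts, 9.76% also occur in its processed copy Akt2-ps, which had 11, 0, 3 and 4 counts in the 4 libraries, so that a part of the Akt2 reads cannot be placed with certainty. Per kilobase, Akt1 was above Akt2 in every library, by 1.60 and 1.51 times in ND and 6.96 and 4.39 times in HFD.

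Mapk8 and Mapk10 encode the JNK kinases JNK1, which is broadly expressed, and JNK3, known mainly from neurons, heart and testis. Mapk8 lies on chromosome 14 from 33377898 to 33447158, with 49 and 51 counts in ND against 1160 and 6626 in HFD. In CPM these are 5.96 and 6.53 in ND and 180 (95% Poisson interval 169 to 190.3) and 1158 (1130 to 1186) in HFD. Both HFD libraries were far above both ND libraries, at 13.8 and 46.4 times the background limit, and the ND libraries were at background. TMM-normalized CPM averaged 6.54 ± 0.778 in ND against 528 ± 375 in HFD (SD, n = 2 per diet), and the HFD libraries differed 3.01-fold. Mapk8 had a log2 fold change of 6.33 (SE 1.94, unadjusted p = 0.0190, adjusted p = 0.406 in the quasi-likelihood test of edgeR), and leaving out any library gave 5.34 to 6.80. Mapk8 was the only one of the 10 genes at an unadjusted p under 0.05. Mapk10 lies on chromosome 5 from 102907948 to 103211334. Its counts were 38 and 40 in ND, 39 in HFD replicate 1 and 9981 in HFD replicate 2. The value of HFD replicate 2 was 1744 CPM (95% Poisson interval 1709.8 to 1778), and the other 3 libraries lay between 4.62 and 6.04 CPM, and the interval of HFD replicate 1, 4.30 to 8.26 CPM, included both ND values. A log2 fold change of 6.88 (SE 2.81, adjusted p = 0.406) became 0.81 without HFD replicate 2. The marker sums given for Pik3r1 concern the same library, and their part in the Mapk10 value was not tested. The ratio of Mapk8 to Mapk10 per kilobase was 1.25 and 1.24 in ND, 28.9 in HFD replicate 1 and 0.646 in HFD replicate 2, so that the more abundant JNK differed between the HFD libraries. No stretch of 50 bases in Mapk10 or Akt1 transcripts occurs in another gene, and 0.110% of those of Mapk8 do.

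The diets were compared over all 19335 genes that passed the filter on low counts, which included all 10 genes, at an adjusted p under 0.05 and a fold change over 1.5. By edgeR's quasi-likelihood test 0 of the 10 genes and 0 of all genes (0%) were called. At an unadjusted p under 0.05, 1 of the 10 genes had a log2 fold change above 0 and 0 had one below 0, where 4.82% and 6.41% of all genes did so. DESeq2, the tool of the study's methods, called Irs1, Pik3r1, Mapk8 and Mapk10, which are 4 of the 8 genes of this group with an adjusted p, and 0 in the other direction. Among the 5601 genes with an adjusted p, DESeq2 called 24.3% above and 21% below ND. Its adjusted p was 0.00164 for Irs1, 0.000261 for Pik3r1, 1.08e-05 for Mapk8 and 0.000242 for Mapk10, and Insr and Akt2 received none. Both HFD values exceeded both ND values in TMM-normalized CPM for 4 of the 10 genes, Igf1r, Akt1, Mapk8 and Mapk10, against 16.1% of all genes, and lay below both for 3, Insr, Pik3ca and Akt2, against 17.8%. In CPM without the TMM factors these numbers were 5, with Irs1 added, against 13.9% of all genes, and 0 against 13.4%. The median log2 fold change of all genes was 0.03 with TMM factors and 0.21 with library size only, and Irs2 turned from -0.19 to 0.12 with the latter.

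The absolute log2 ratio between the HFD replicates exceeded the absolute log2 fold change between diets for Insr, Irs1, Irs2, Pik3r1, Pik3ca, Akt2 and Mapk10, and did not for Igf1r, Akt1 and Mapk8. The share of all genes with this outcome was not computed. For Irs1, Pik3r1 and Mapk10, each high in 1 HFD library only, it follows largely from that 1 value. Between the ND libraries the median absolute log2 ratio was 0.27 over the 10 genes and 0.74 over all genes tested. Between the HFD libraries it was 1.47 over the 10 genes and 0.82 over all genes. A value over 10 times the next highest library was found for Irs1 in HFD replicate 1, a pattern that 5.25% of all genes had in that library. Pik3r1 and Mapk10 had it in HFD replicate 2, against 1.7% of all genes. It was found for 0 of the 10 genes in ND replicates 1 and 2, against 3.52% and 1.65% of all genes. Mapk8 was the only one of the 10 with both HFD libraries over 10 times both ND libraries, a pattern of 110 of 19335 genes (0.569%). The plot of replicate against replicate places the ND values of all 10 genes near the diagonal, and those of Irs1, Pik3r1 and Mapk10 along the axes in HFD.

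**Figure D3:**
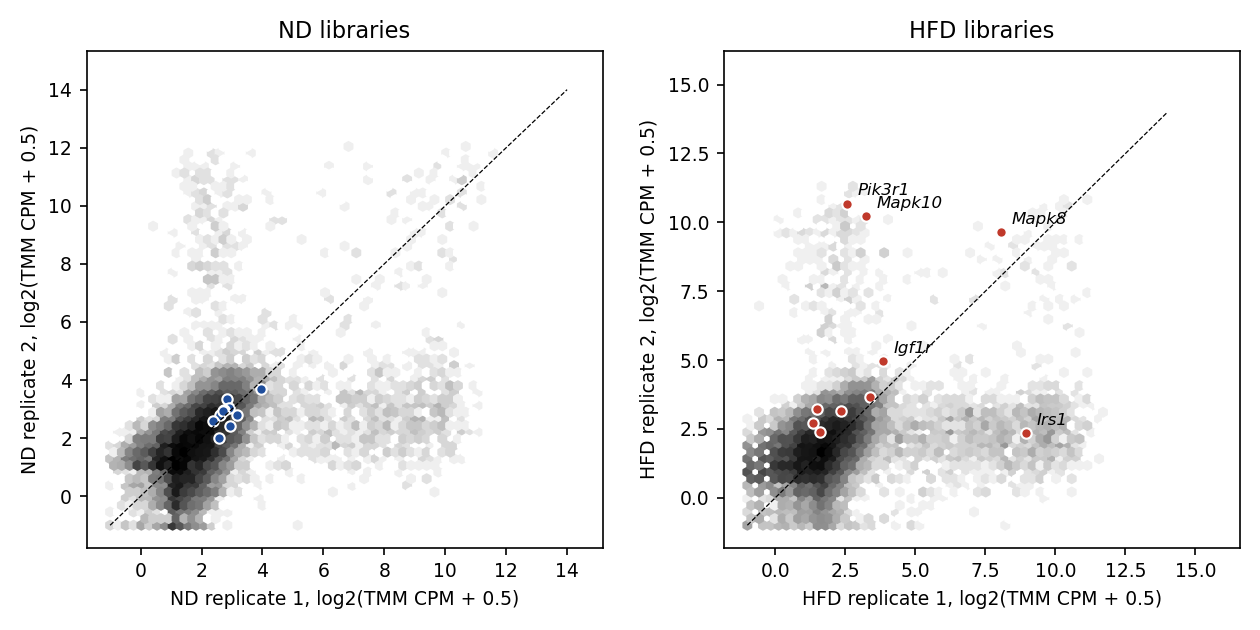
Replicate 2 against replicate 1 in log2(TMM-normalized CPM + 0.5) for ND (left) and HFD (right), with all 19335 genes tested in grey (darker for more genes), the 10 genes as coloured points and the line of equal values dashed. Irs1 lies high in HFD replicate 1 alone, Pik3r1 and Mapk10 in HFD replicate 2 alone, and Mapk8 in both.

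**Figure D4:**
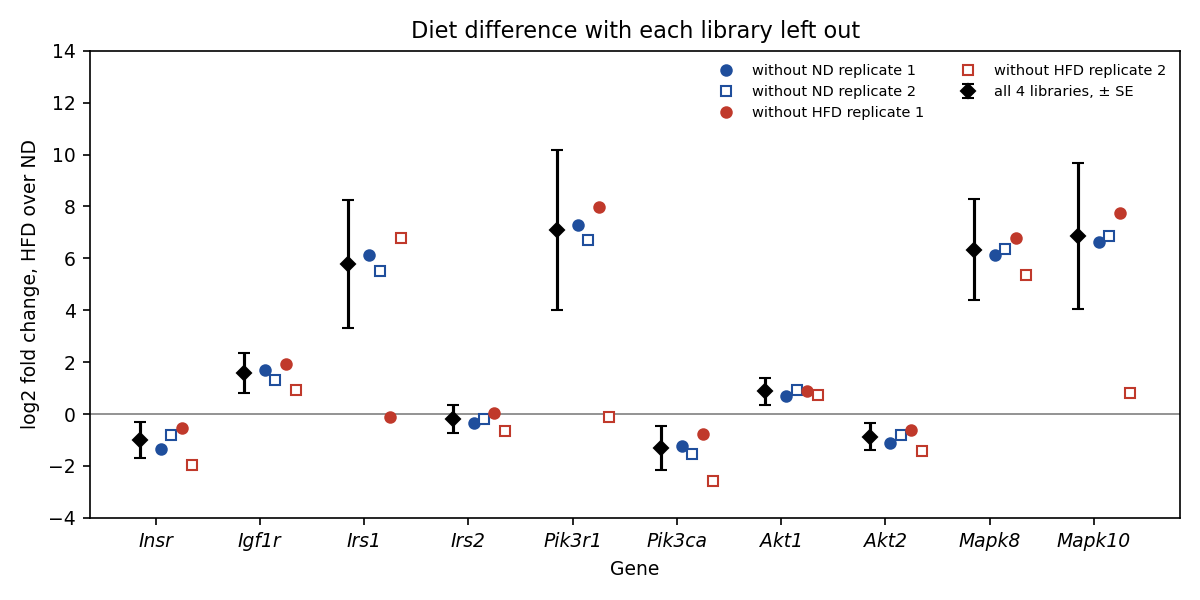
Log2 fold change of HFD over ND from edgeR for each of the 10 genes, with all 4 libraries (black diamonds, bars are standard errors) and with each library left out (coloured points). Irs1 drops to -0.10 without HFD replicate 1, Pik3r1 to -0.12 and Mapk10 to 0.81 without HFD replicate 2, and Mapk8 keeps at least 5.34.

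A list of 60 other genes of the pathway was described in the same way. Of these, 58 passed the filter, and 0 were called by edgeR. Their median log2 fold change was 0.28, with 32 above 0 and 26 below, against a median of 0.03 over all genes and 1.23 over the 10 genes. At an unadjusted p under 0.05 there were 2 above ND, Ptprf and Jun, and 5 below, Dusp1, Gsk3b, Foxo1, Sos1 and Socs1, which are 3.45% and 8.62% of the 58 genes, near the 4.82% and 6.41% of all genes. In 26 of the 60 genes no library exceeded background, and Ppp2ca, the catalytic subunit of the phosphatase PP2A, was the 1 gene that exceeded it in all 4. Per library, 13.5% to 24.8% of protein-coding genes exceeded background, which is a different measure. The shares of all genes above it in no library or in all 4 were not computed. Counts of Ppp2ca were 3720 and 81 in ND and 9122 and 1768 in HFD. A value over 10 times the next library was found for 8 genes (13.8% of the 58), 0 in ND replicate 1, 2 in ND replicate 2, 4 in HFD replicate 1 and 2 in HFD replicate 2. Of all genes tested, 3.52%, 1.65%, 5.25% and 1.7% had such a value in these libraries, in the same order. These 4 shares are per library, and the 13.8% covers the 4 libraries together. It is therefore to be set against the 4 shares added up, not against any 1 of them.

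Upstream of AKT, the insulin genes Ins1 and Ins2 had at most 10 counts in any library. Igf2r, the receptor that clears insulin-like growth factor 2, was the most abundant of the ligand group per kilobase, with 497 and 155 counts in ND and 246 and 83 in HFD. Sos1, an exchange factor for RAS, had 55 and 566 counts in ND and 13 and 20 in HFD (log2 fold change -3.99, SE 1.38). Ptprf, a receptor tyrosine phosphatase that acts on the insulin receptor, had 67 and 101 counts in ND and 1946 and 2777 in HFD. Its log2 fold change was 5.12 (SE 1.70, unadjusted p = 0.0261, adjusted p = 0.406 from edgeR), and like Mapk8 it was high in both HFD libraries. Ptpn1, the phosphatase PTP1B that dephosphorylates the insulin receptor, had 48 and 28 counts in ND, 3742 in HFD replicate 1 and 58 in HFD replicate 2. Socs1, an inhibitor of cytokine and insulin receptor signalling, had 19 and 85 counts in ND and 3 and 14 in HFD. Of the other PI3-kinase subunits, Pik3cd had the most reads per kilobase, with 40 and 46 counts in ND and 17 and 95 in HFD. Of these subunits, 5 of 6 were at background in all libraries, and the share of all genes with this was not computed.

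Downstream, Gsk3b, a kinase that AKT inhibits, had 2872 and 1486 counts in ND and 12 and 34 in HFD. Both HFD libraries were at background. Its log2 fold change was -6.35 (SE 1.66, unadjusted p = 0.00938, adjusted p = 0.406 from edgeR), and DESeq2 called it (adjusted p = 5.06e-06). Foxo1, a transcription factor that AKT keeps out of the nucleus, had 59 and 50 counts in ND and 10 and 25 in HFD, all at background. Tbc1d4, an AKT substrate in glucose transporter traffic, had 16032 counts in ND replicate 2 and 25 to 33 in the other 3 libraries. Foxo3, a FOXO factor known for holding primordial follicles at rest and named after its values were seen, had 934 and 71 counts in ND and 33 and 8405 in HFD. In the JNK module, Map2k4, a kinase that activates JNK, had 32 and 56 counts in ND, 5676 in HFD replicate 1 and 36 in HFD replicate 2. Jun, the transcription factor named as JNK's substrate, had 19 and 16 counts in ND and 75 and 40 in HFD (log2 fold change 2.25, SE 0.74, unadjusted p = 0.0218, adjusted p = 0.406 from edgeR). Dusp1, a phosphatase that inactivates JNK, had 34 and 62 counts in ND and 7 and 15 in HFD (log2 fold change -1.90, SE 0.50, unadjusted p = 0.00832, adjusted p = 0.406 from edgeR). The counts of the remaining genes are in the grid of CPM by gene and library.

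**Figure D5:**
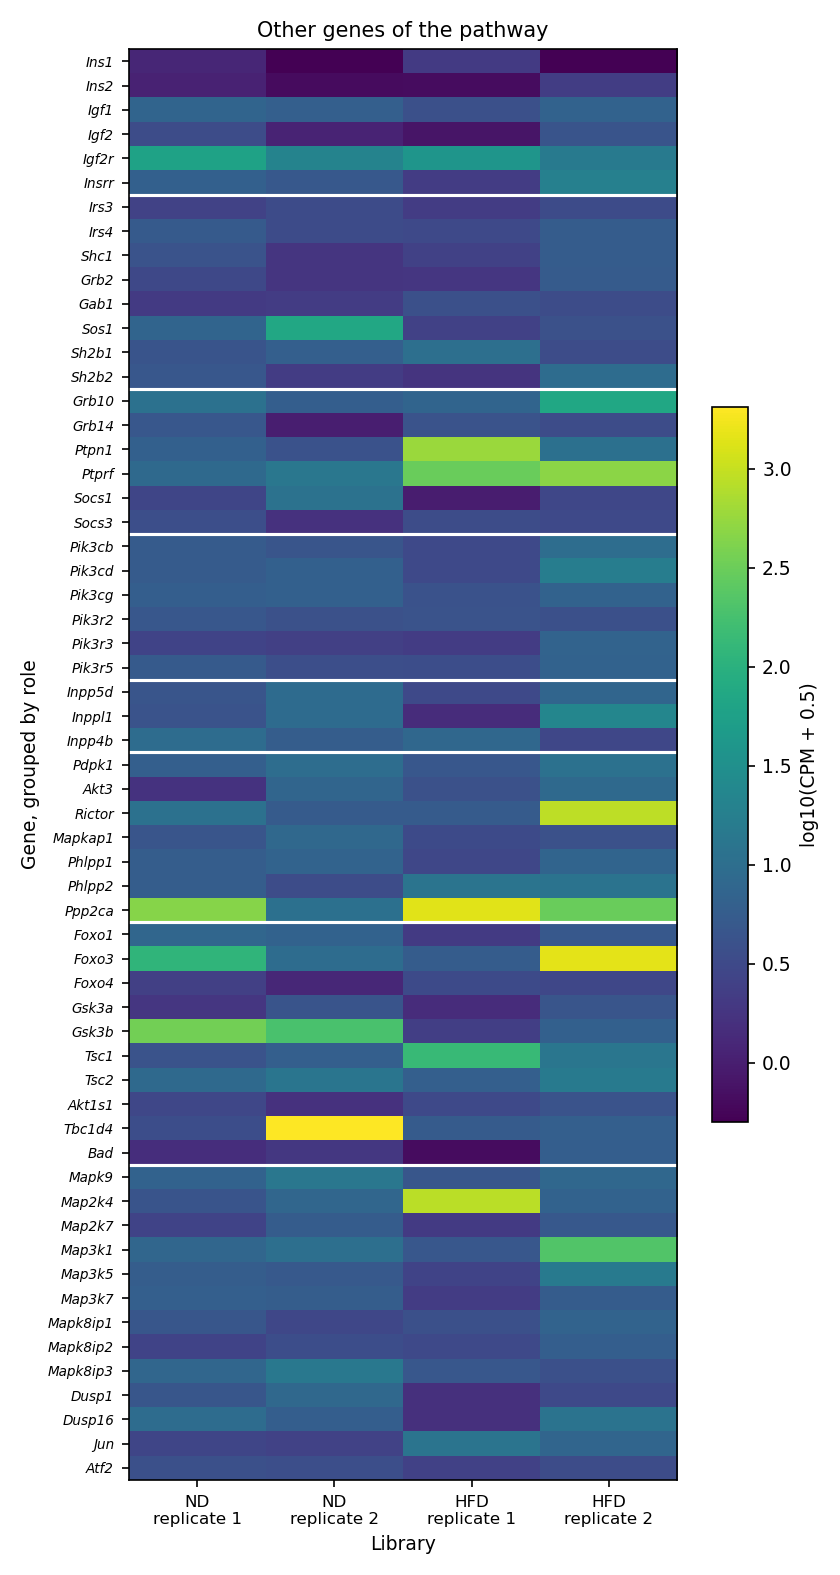
CPM of the other pathway genes reported here (rows, from top to bottom ligands, adaptors, negative regulators at the receptor, PI3-kinase subunits, lipid phosphatases, AKT kinases and phosphatases, AKT targets and the JNK module, white lines between them) in the 4 libraries (columns), as log10(CPM + 0.5). Most rows are dark throughout, and bright cells mostly stand alone in 1 library, such as Tbc1d4 in ND replicate 2 and Map2k4 in HFD replicate 1.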

How the data were processed

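The study measured RNA of E18.5 oocytes in 4 libraries, 2 per diet. The deposited values are raw counts per Ensembl identifier, which the authors obtained with Trim Galore, HISAT2 (genome mm10) and featureCounts. The annotation release, the strand setting and the treatment of reads with several alignments are not given in the sources used here. Names, positions and union exon lengths came from GENCODE M21, which held 55141 of 55401 identifiers. Here CPM were computed on library totals of 5723605 to 8223255 counts. The diets were compared in R 4.3.3 with edgeR 4.0.16 (TMM, filterByExpr, quasi-likelihood fit with legacy FALSE and robust FALSE) with Benjamini-Hochberg adjustment over all genes tested. Standard errors were taken as |log2 fold change| divided by the root of F. The alternatives were RLE or no factors, other filters, the legacy fit, DESeq2 1.42.0, limma-voom 3.58.1, a replicate block and leaving out each library. The genes, the lists, the tests and the background measure were chosen with earlier results of these data known. All 10 genes are named. Of the 60 others the text names those at an unadjusted p under 0.05, the most abundant per kilobase of each role, and Ins1, Ins2 and Foxo3, chosen after their values were seen. A gene that this rule would name is not reported here. Lists of cell type markers for macrophages, blood and housekeeping were also summed. Without molecular identifiers, intervals and floors cover counting error only.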

Additional observations from a re-analysis of the deposited data

How the results depend on the processing

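All 10 genes gave 0 calls under each edgeR setting and with limma-voom, and 4 calls with DESeq2 on all genes. Over all genes the edgeR count of 0, with 2171 genes at an unadjusted p under 0.05, became 34 with the legacy fit and 2539 with DESeq2, and limma-voom gave 0 calls and 750 such genes. The other pathway genes went from 0 calls to 9 with DESeq2, which are 40.9% of the 22 with an adjusted p, against 45.3% of all 5601 such genes. Of 119 log2 fold changes of the 10 genes under alternatives, 111 kept sign and side of the limit, 4 passed it (DESeq2), and 4 turned sign. With all libraries kept, limma-voom lowered Irs1 to 3.93, Pik3r1 to 3.67 and Mapk10 to 3.99, and the replicate block lowered them to 3.45, 4.02 and 4.34. Irs2 became 0.12 with library size only. With 1 library left out, Irs1 ranged from -0.10 (without HFD replicate 1) to 6.78, Irs2 from -0.67 to 0.058 (without HFD replicate 1) and Pik3r1 from -0.12 (without HFD replicate 2) to 7.98. Insr ranged from -1.96 to -0.55 and Pik3ca from -2.58 to -0.75, with the lower value without HFD replicate 2 and the higher without HFD replicate 1, and Igf1r from 0.91 (without HFD replicate 2) to 1.92. Leaving a library out leaves 1 sample in an arm, which is assumed to vary like the other diet. Insr has no value with at least 10 counts in every library. At the 95th percentile of olfactory receptor genes, 4 of the 10 genes exceeded background in ND replicate 2 in place of 2. At a limit of 10 CPM, 1 did so in ND replicate 1 in place of 3, 1 in ND replicate 2 in place of 2, 2 in HFD replicate 1 in place of 3 and 7 in HFD replicate 2 in place of 5. The cause of these differences was not tested. Replicate numbers are shared between diets without a stated link. The deviations of the libraries numbered 1 from their diet means had a correlation of 0.0112 over 19335 genes, and the replicate block gave 0 calls among the 10 genes and among all genes, with 1482 genes at an unadjusted p under 0.05. Insr stayed under both percentiles of the olfactory receptor genes in all 4 libraries, and Akt2 exceeded the 95th in both ND libraries. Whether deeper sequencing would separate them from background was not tested.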

Other observations

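Over the 4 libraries, the protein-coding genes with the pattern most like that of Pik3r1, by Euclidean distance of centred log2 CPM among 3263 genes, were Snx24 (distance 0.209), Psd3 (0.380) and Ckap4 (0.380). Snx24, a sorting nexin, had 22 and 14 counts in the ND libraries, 11 in HFD replicate 1 and 6462 in HFD replicate 2. For Mapk10, among 3372 genes, they were Zmym5 (0.147), Cd47 (0.207) and Ncapg2 (0.238). Cd47, a surface protein that signals to phagocytes, had 27 and 27 counts in ND, 25 in HFD replicate 1 and 5980 in HFD replicate 2. Ncapg2, a subunit of condensin II, had 51 and 43 counts in ND, 43 in HFD replicate 1 and 11940 in HFD replicate 2. With 4 libraries, and 1 of them high in each of these genes, the distances mainly compare the size of that 1 value, and no test was made.

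Blood markers summed to 1973 CPM in ND replicate 1, led by Hbb-bs with 7350 counts, and to 2.18 to 11.5 CPM in the other 3 libraries. Macrophage markers summed to 11.1 to 40.9 CPM, highest in HFD replicate 2, and housekeeping genes to 5353 to 10225 CPM. Some single housekeeping genes differed far more than their sum. Eef1a1 had 28745 and 36862 counts in ND and 5730 and 362 in HFD. Gapdh had 5477 and 92 in ND and 23 and 60 in HFD. Actb varied less, with 15804 and 15983 in ND and 24209 and 28782 in HFD. It made up 93.9% of the housekeeping sum in HFD replicate 2. Among the 10 genes, the highest count in ND replicate 1 was 124, for Pik3ca. The part of blood cells in the counts of the 10 genes was not tested.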
